A study of Danio rerio with 18 samples.

Results

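The insulin-like growth factor (IGF) system of zebrafish larvae was followed through its ligands, receptors and binding proteins. The members were chosen by name. A list of 10 zebrafish symbols was looked up, ignoring case, in the table that pairs Ensembl gene IDs with symbols, and a symbol not found there was looked up again without its final a or b. This gave 12 genes of the 32520 gene IDs in the count files. They were 3 ligand genes, IGF1 (ENSDARG00000094132), igf2a (ENSDARG00000018643) and igf2b (ENSDARG00000033307), and 2 receptor genes, both named IGF1R. The remaining 7 encode binding proteins and are IGFBP1 (ENSDARG00000099351), igfbp1b (ENSDARG00000038666), IGFBP3 (ENSDARG00000099144), 2 genes named IGFBP2 and 2 genes named IGFBP5. The name table does not say which gene of such a pair is the a copy and which the b copy, so they are told apart by their IDs. The first IGF1R gene is ENSDARG00000027423 and the second is ENSDARG00000034434. The first IGFBP2 gene is ENSDARG00000031422 and the second is ENSDARG00000052470. The first IGFBP5 gene is ENSDARG00000025348 and the second is ENSDARG00000039264. Of each of the IGFBP2 and IGFBP5 pairs only 1 copy was on the list, and both are described because they cannot be told apart by name. All 12 genes passed the filter on low counts.

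IGF1 and IGF2 are small secreted proteins related to insulin, and they drive growth of the whole animal and of single tissues. Both bind the IGF1 receptor, a tyrosine kinase of the insulin receptor family that signals through the PI3K-Akt and MAPK pathways. IGF binding proteins hold most secreted IGF outside cells, where they lengthen its life or keep it from its receptor. Several of these genes are kept as a and b copies in zebrafish. Both igfbp1 genes of zebrafish are known to respond to low oxygen, and growth hormone is the best known inducer of IGF1 in the liver.

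RNA-Seq was carried out on whole zebrafish larvae at 120 hours post fertilization (hpf), with 6 samples in each of 3 groups. The study asked what loss of Akr1a1a, an enzyme that clears acrolein (ACR), and ACR itself do to larvae. The akr1a1a-/- larvae carried a CRISPR/Cas9 deletion-insertion of 4 nucleotides in exon 2 of akr1a1a, made in the Tg(fli1:EGFP) line, whose transgene marks blood vessels. The paper states that its transcriptome experiments used Tg(fli1:EGFP) zebrafish, and does not limit this to the mutants. The treated group was akr1a1a+/+ larvae given 10 µM ACR between 24 and 120 hpf, and the reference for both was untreated akr1a1a+/+ larvae. All larvae were raised with PTU, which suppresses pigment. For the akr1a1a-/- and the untreated akr1a1a+/+ larvae, each sample pooled 30 larvae of 1 clutch. The mutants came from a single mutant allele, and the whole larvae mix all tissues, so that fewer cells of a type and less RNA per cell cannot be told apart in any value below.

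The libraries held 19878464 to 20463404 estimated counts each. The akr1a1a gene itself had 0.306 to 0.741 CPM (counts scaled to a library total that is the same for every sample) in akr1a1a-/- larvae, 2.76 to 3.75 CPM in ACR-treated larvae and 2.32 to 3.41 CPM in untreated akr1a1a+/+ larvae, so that every akr1a1a-/- sample lay below every other sample. The sequencing lane, read from the sample descriptions, followed the groups. All 6 akr1a1a-/- libraries were run on lane 3, all 6 untreated akr1a1a+/+ libraries on lane 2, and the ACR-treated libraries 3 on each. Genotype and lane can therefore not be told apart between akr1a1a-/- and untreated akr1a1a+/+ larvae. A fit with lane as a covariate takes the lane difference from the ACR-treated libraries alone, replicates 1 to 3 against 4 to 6. It cannot show whether a difference between these groups came from lane. Its SE is also wider, for igf2a 0.224 with and 0.128 without lane in akr1a1a-/- over untreated larvae. A call lost in that fit is thus not a smaller change in itself. ACR-treated and untreated akr1a1a+/+ samples of the same replicate number deviated together, with correlations of 0.249 to 0.603 over all genes. Markers of the tissues that make or control IGFs were present throughout. The 14 hepatocyte markers summed to 7856 to 9796 CPM in akr1a1a-/- larvae, 6968 to 9558 CPM in ACR-treated larvae and 7623 to 9578 CPM in untreated larvae. The 9 pituitary markers, 1 of them at 0 in every sample, summed to 6.89 to 24.6 CPM in akr1a1a-/- larvae, 8.0 to 20.7 CPM in ACR-treated larvae and 8.53 to 20.3 CPM in untreated larvae. The 11 cartilage and bone markers summed to 2163 to 2546 CPM in akr1a1a-/- larvae, above the 1786 to 2085 CPM of untreated larvae. In ACR-treated larvae they summed to 1809 to 2240 CPM, which overlapped both ranges. The largest part of these sums was a single gene, COL2A1 (ENSDARG00000069093). It had 1474 ± 75.4 CPM in akr1a1a-/- and 1146 ± 86.1 CPM in untreated larvae (mean ± SD, n = 6). Of the 10 cartilage and bone markers tested, 5 were lower by sign in akr1a1a-/- than in untreated larvae, against 50.2% of all genes. The 8 fast muscle markers summed to 36030 to 42370 CPM in akr1a1a-/- larvae and 35420 to 38260 CPM in untreated larvae. ACR-treated larvae had 35990 to 39200 CPM. These sums were not tested.

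None of the 12 genes passed the test in any of the comparisons. In edgeR's quasi-likelihood fit, with p values adjusted by Benjamini and Hochberg's method over the 23223 genes tested, 0 of 12 passed an adjusted p of 0.05 between akr1a1a-/- and untreated akr1a1a+/+ larvae, where 16.2% of all genes tested passed. At an unadjusted p under 0.05 the count was 2 of 12, against 29.8% of all genes. Between ACR-treated and untreated larvae 0 of 12 passed, against 0.0258% of all genes, and 0 of 12 were under an unadjusted p of 0.05, against 5.42% of all genes. Between akr1a1a-/- and ACR-treated larvae 0 of 12 passed, against 13.8% of all genes, and 0 of 12 were under the unadjusted p, against 27.1%. DESeq2's Wald test also called 0 of 12 in each comparison. No gene had groups that did not overlap, which 7.45% of all genes had between akr1a1a-/- and untreated larvae, 0.306% between ACR-treated and untreated larvae and 6.13% between akr1a1a-/- and ACR-treated larvae.

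The 95% intervals cover the spread between samples in the fit without lane, and not a difference between lanes. For all 12 genes they lay between 0.718-fold and 1.55-fold for akr1a1a-/- over untreated akr1a1a+/+ larvae, between 0.740-fold and 1.53-fold for ACR-treated over untreated larvae, and between 0.683-fold and 1.38-fold for akr1a1a-/- over ACR-treated larvae. The ends were set by igf2b and IGF1 in the first of these ranges, by igfbp1b and IGFBP1 in the second and by IGFBP1 alone in the last, and these genes varied most between samples of one group. The second range takes no account of pairing by replicate number. For IGFBP1 in that comparison the SE was 0.244 in this fit. It was 0.082 with a replicate block in a fit of both groups alone, a fit chosen after seeing the data. The log2 fold change of IGFBP1 in akr1a1a-/- over untreated larvae with lane as a covariate, 0.86, is a fold change above the 1.55-fold end of the first range. The narrowest interval belonged to the first IGFBP5 gene, at 0.935-fold to 1.1-fold in akr1a1a-/- over untreated larvae. In direction, 9 of 12 genes were lower in akr1a1a-/- than in untreated larvae, against 50.2% of all genes tested, with a median log2 fold change of -0.08. The comparisons share their samples, so their values do not support each other.

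**Figure D1:**
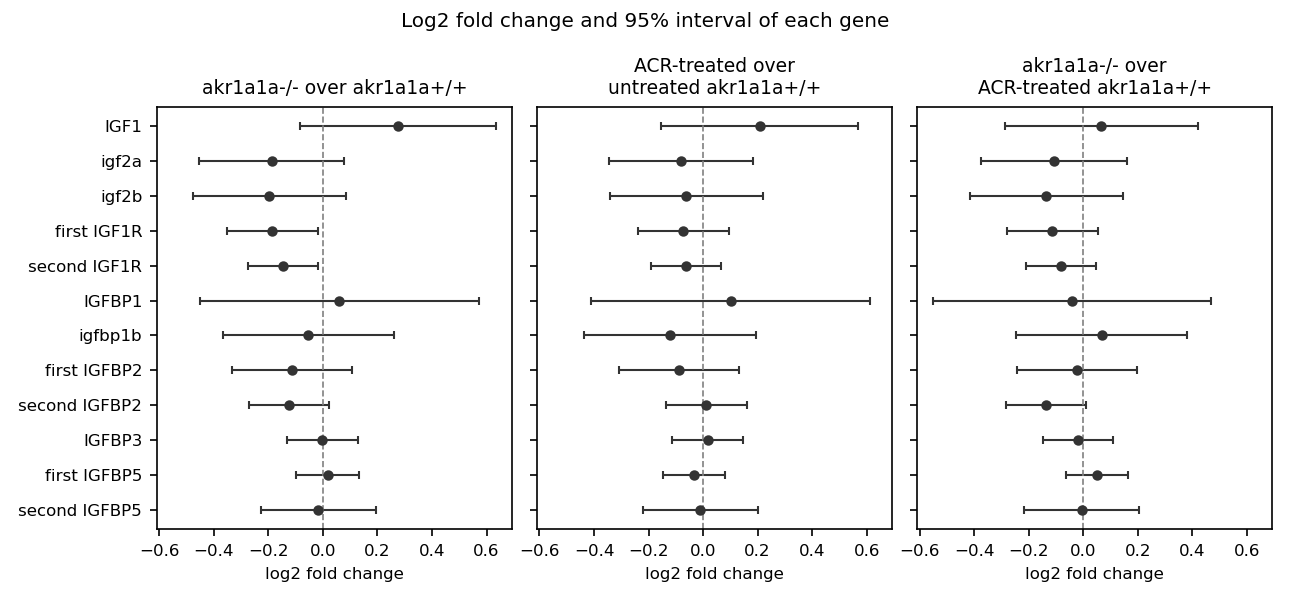
Log2 fold change of each of the 12 IGF genes (points) with its 95% interval (bars) in the 3 comparisons, from edgeR's quasi-likelihood fit over 18 samples. In akr1a1a-/- over untreated akr1a1a+/+ larvae the intervals of both IGF1R genes lie just below 0, and every other interval in the plot includes 0.

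Within the untreated akr1a1a+/+ larvae the levels per transcript length, in TPM (transcript abundance scaled to the same total in every sample), spanned from 1.88 ± 0.388 TPM for IGF1 to 52.6 ± 4.09 TPM for the second IGFBP2 gene (mean ± SD, n = 6, as for all levels given so). IGFBP1 followed the second IGFBP2 gene at 30.4 ± 7.50 TPM, and the first IGFBP5 gene came after it at 21.5 ± 1.90 TPM. The better expressed ligand was igf2b at 18.2 ± 3.43 TPM, and igf2a had 12.3 ± 2.17 TPM. The ranges of neighbours in this order overlapped in all but 3 places. The second IGFBP2 gene stood above IGFBP1, IGFBP3 at 8.98 ± 0.684 TPM stood above the first IGF1R gene at 5.75 ± 0.765 TPM, and the second IGF1R gene at 4.63 ± 0.443 TPM stood above IGF1. In between lay igfbp1b at 13.3 ± 2.43 TPM, the first IGFBP2 gene at 10.6 ± 0.925 TPM and the second IGFBP5 gene at 5.52 ± 0.607 TPM.

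**Figure D2:**
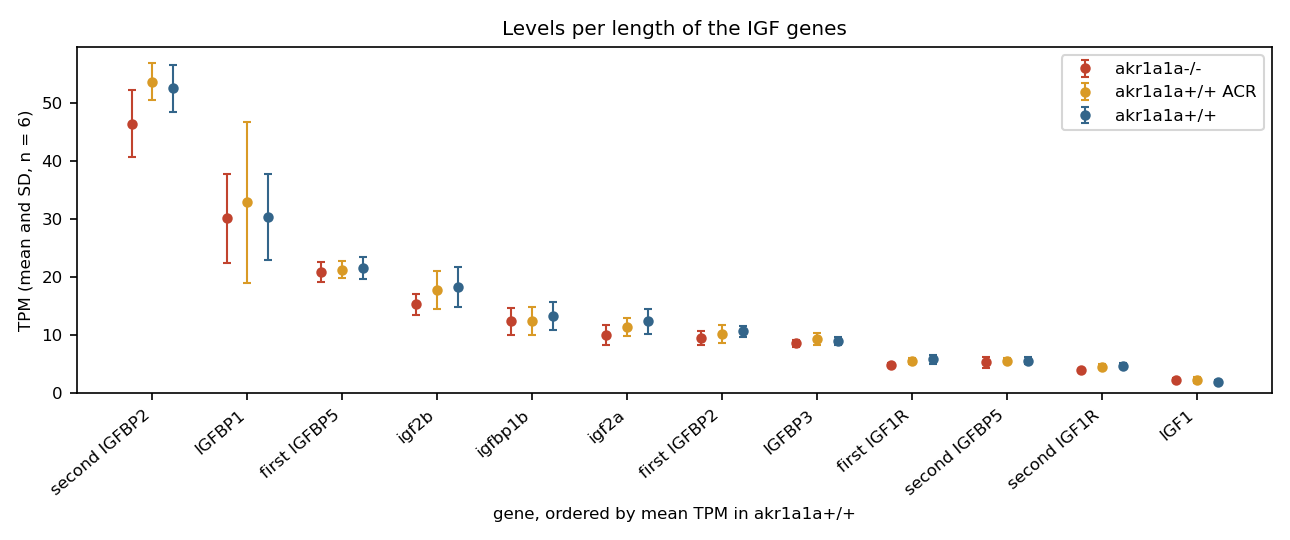
Mean level in TPM (points) and SD over 6 samples (bars) of the 12 IGF genes in akr1a1a-/- larvae, ACR-treated akr1a1a+/+ larvae and untreated akr1a1a+/+ larvae, in order of the level in untreated larvae. The second IGFBP2 gene, at 46.5 TPM in akr1a1a-/- and 52.6 TPM in untreated larvae, is the highest in all groups, and IGF1 the lowest.

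By role, transcripts of the 7 binding protein genes outnumbered those of the ligands and receptors in every group. The binding proteins summed to 133 ± 6.31 TPM in akr1a1a-/- larvae, 145 ± 15 TPM in ACR-treated larvae and 143 ± 11.8 TPM in untreated larvae. The 3 ligands summed to 27.5 ± 3.56 TPM in akr1a1a-/- larvae, 31.2 ± 4.74 TPM in ACR-treated larvae and 32.4 ± 4.90 TPM in untreated larvae. The 2 receptors summed to 8.81 ± 0.424 TPM in akr1a1a-/- larvae, 9.97 ± 0.673 TPM in ACR-treated larvae and 10.4 ± 1.17 TPM in untreated larvae. The ranges of all groups overlapped in each of these sums, which were not tested. On log2(TPM + 1), the median log2 fold change over all genes tested was -0.05 in akr1a1a-/- over untreated larvae. Over ACR-treated larvae it was -0.06. The sums are not adjusted for this shift. Of the ligand transcripts, igf2b made up 55.7% ± 2.58 in akr1a1a-/- larvae, 56.5% ± 3.84 in ACR-treated larvae and 55.9% ± 3.80 in untreated larvae. IGF1 contributed 8.03% ± 1.2 in akr1a1a-/- larvae, 7.07% ± 1.47 in ACR-treated larvae and 6.10% ± 2.44 in untreated larvae, and igf2a the rest.

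Among the ligands, IGF1 was the only one with a higher mean in akr1a1a-/- larvae. IGF1, the ligand that growth hormone induces, had a lowest, median and highest value of 1.58, 1.68 and 2.32 CPM in akr1a1a-/- larvae, 1.08, 1.80 and 2.22 CPM in ACR-treated larvae and 1.27, 1.34 and 1.94 CPM in untreated larvae. All 6 akr1a1a-/- samples lay above the untreated median, but 2 of 6 untreated samples lay within the akr1a1a-/- range, and the ACR-treated samples overlapped both groups. The log2 fold change was 0.27 ± 0.17 (SE, adjusted p = 0.302) in akr1a1a-/- over untreated larvae, 0.21 ± 0.17 (adjusted p = 0.934) in ACR-treated over untreated larvae and 0.07 ± 0.17 (adjusted p = 0.851) in akr1a1a-/- over ACR-treated larvae. IGF1 rested on 22 to 47 estimated counts a library, so that counting error alone is wide for this gene.

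The igf2 genes encode the second kind of IGF ligand, which acts mainly before adulthood in mammals. The lowest, median and highest values of igf2a were 10.2, 14.2 and 16.6 CPM in akr1a1a-/- larvae, 12.2, 15.2 and 16.4 CPM in ACR-treated larvae and 10.7, 15.5 and 18.9 CPM in untreated larvae. Those of igf2b were 32.1, 39.4 and 43.9 CPM in akr1a1a-/- larvae, 29.2, 44.2 and 52.8 CPM in ACR-treated larvae and 27.9, 45.8 and 51.9 CPM in untreated larvae. The groups overlapped for both genes, and their lowest sample was replicate 6 in every group. In akr1a1a-/- over untreated larvae the log2 fold change was -0.19 ± 0.13 for igf2a (SE, adjusted p = 0.343) and -0.20 ± 0.13 for igf2b (adjusted p = 0.348). For igf2b the call depended on the low samples. When replicate 6 of the untreated and of the ACR-treated larvae was left out, a choice made after seeing the data, igf2b was lower in akr1a1a-/- larvae (log2 fold change -0.30, adjusted p = 0.0192). That fit kept akr1a1a-/- replicate 6, the lowest of its own group, so the choice of samples itself pushed the fold change down. Without untreated replicate 6 alone igf2b was not called (adjusted p = 0.0798). Nor was it called without akr1a1a-/- replicate 6 alone (log2 fold change -0.15, adjusted p = 0.526). The fit with lane as a covariate gave 0.02 (adjusted p = 0.967). In ACR-treated over untreated larvae the values were -0.08 ± 0.13 for igf2a (adjusted p = 0.958) and -0.06 ± 0.13 for igf2b (adjusted p = 0.977).

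**Figure D3:**
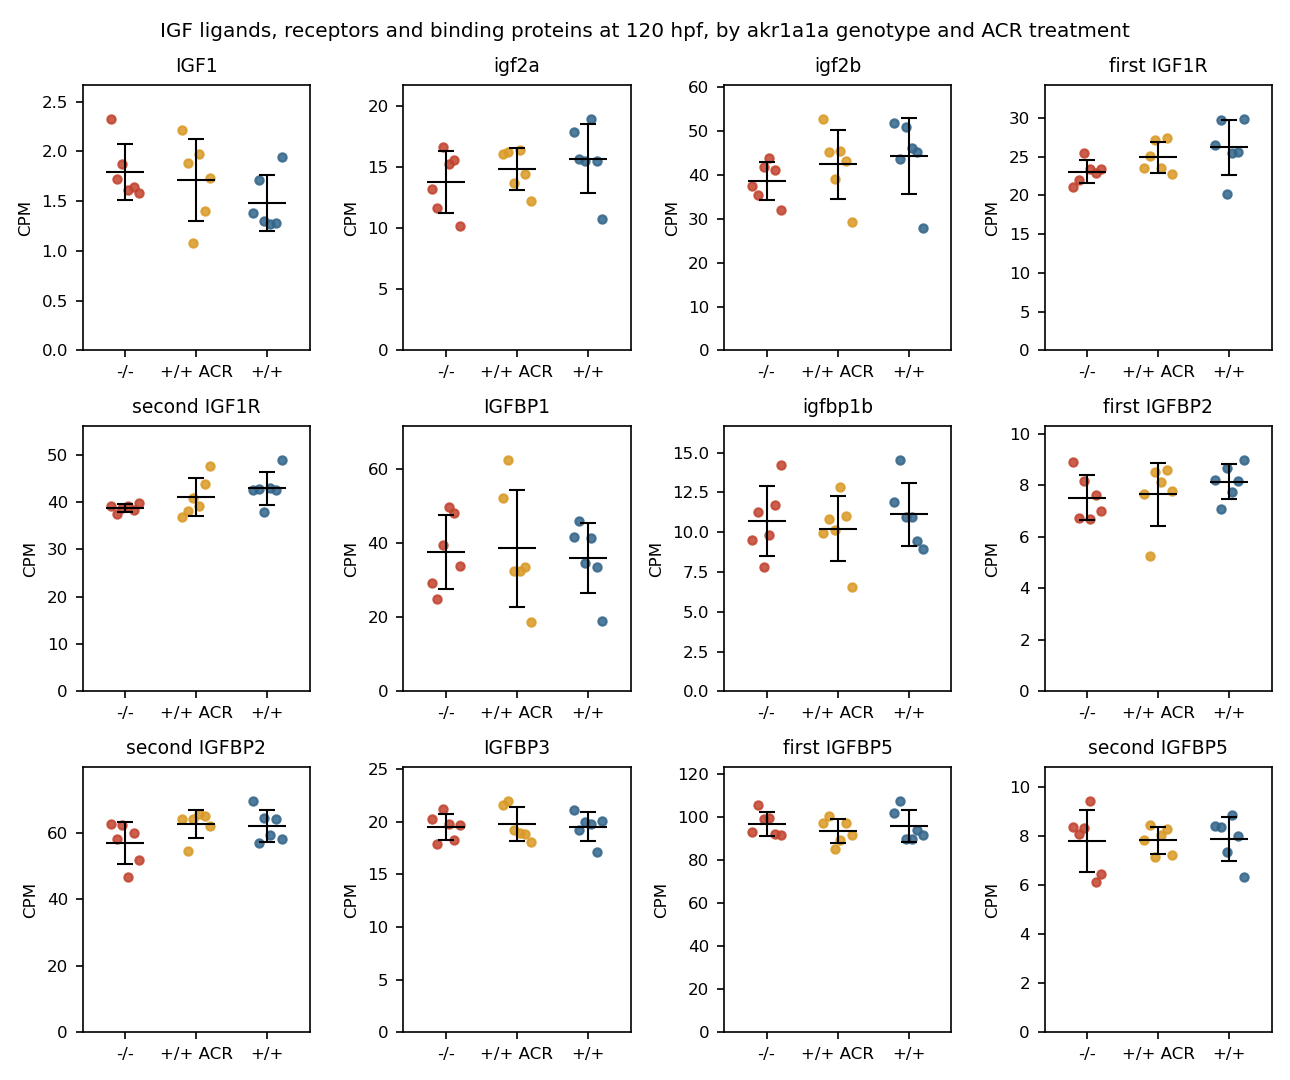
CPM of the 12 IGF genes in each sample (dots), with the group mean and SD (black, n = 6), for akr1a1a-/- larvae (left), ACR-treated akr1a1a+/+ larvae (middle) and untreated akr1a1a+/+ larvae (right). The groups overlap for every gene, and the single low dots of igf2b at 29.2 and 27.9 CPM are replicate 6 of the ACR-treated and of the untreated larvae.

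The IGF1R genes had the lowest p values of the 12. The first IGF1R gene had a lowest, median and highest value of 21.1, 23.2 and 25.5 CPM in akr1a1a-/- larvae, 22.8, 24.3 and 27.4 CPM in ACR-treated larvae and 20.2, 26.02 and 29.8 CPM in untreated larvae. The second IGF1R gene had 37.4, 39.0 and 39.9 CPM in akr1a1a-/- larvae, 36.8, 40.1 and 47.6 CPM in ACR-treated larvae and 37.9, 42.6 and 48.9 CPM in untreated larvae. Of the untreated samples, 5 of 6 lay above every akr1a1a-/- sample for the second gene, and for the first gene 5 of 6 lay at or above the highest akr1a1a-/- sample to 3 digits. The exception for both was replicate 3 of the untreated larvae, which lay within the akr1a1a-/- range for the second gene and below it for the first. The second IGF1R gene was also the most even of the 12 among akr1a1a-/- samples, its highest value being 1.07 times its lowest. The log2 fold change in akr1a1a-/- over untreated larvae was -0.19 ± 0.08 for the first gene (SE, unadjusted p = 0.0307, adjusted p = 0.122) and -0.15 ± 0.06 for the second (unadjusted p = 0.0286, adjusted p = 0.117), by edgeR's quasi-likelihood test. The exact two-sided permutation test over all groupings of 6 against 6 samples gave p = 0.0887 for the first and p = 0.0130 for the second gene, unadjusted for the 12 genes. Without replicate 3 of the untreated larvae the first IGF1R gene passed (log2 fold change -0.25, adjusted p = 0.0154). With lane as a covariate the log2 fold changes were -0.15 (adjusted p = 0.538) for the first gene and -0.32 (adjusted p = 0.0538) for the second.

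Mean levels of both receptor genes in ACR-treated larvae lay between the means of the other groups, but the ranges of all groups overlapped. The log2 fold change of ACR-treated over untreated larvae was -0.07 ± 0.08 for the first IGF1R gene and -0.06 ± 0.06 for the second (SE, adjusted p = 0.947 for both). That of akr1a1a-/- over ACR-treated larvae was -0.11 ± 0.08 (adjusted p = 0.395) and -0.08 ± 0.06 (adjusted p = 0.430), in that order. As background to these receptors, the insulin receptor gene INSR (ENSDARG00000011948) had a log2 fold change of -0.29 ± 0.04 in akr1a1a-/- over untreated larvae (SE, adjusted p = 5.00e-05) in the same fit, and the other INSR gene (ENSDARG00000071524) one of -0.14 ± 0.08 (adjusted p = 0.237). In ACR-treated over untreated larvae the values were -0.14 ± 0.04 (adjusted p = 0.847) and -0.11 ± 0.08 (adjusted p = 0.930), in that order. In akr1a1a-/- over ACR-treated larvae they were -0.15 ± 0.04 (adjusted p = 0.01375) and -0.03 ± 0.08 (adjusted p = 0.838). Whether the INSR calls hold with lane as a covariate or without single samples was not examined here.

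Of the binding proteins, the igfbp1 genes are the ones known to be induced by stress, fasting and low oxygen. IGFBP1 had a lowest, median and highest value of 25.0, 36.6 and 49.9 CPM in akr1a1a-/- larvae, 18.7, 33.1 and 62.4 CPM in ACR-treated larvae and 19.1, 38.0 and 46.0 CPM in untreated larvae. No group stood apart, and the spread inside the ACR-treated group, 3.33-fold from lowest to highest, was wider than any difference between group means. Its log2 fold change was 0.06 ± 0.24 in akr1a1a-/- over untreated larvae (SE, adjusted p = 0.901), 0.10 ± 0.24 in ACR-treated over untreated larvae (adjusted p = 0.980) and -0.04 ± 0.24 in akr1a1a-/- over ACR-treated larvae (adjusted p = 0.942). With lane as a covariate, the value for akr1a1a-/- over untreated larvae was 0.86 (unadjusted p = 0.0329, adjusted p = 0.158). Its paralog igfbp1b had 7.80, 10.6 and 14.2 CPM in akr1a1a-/- larvae, 6.57, 10.5 and 12.8 CPM in ACR-treated larvae and 8.92, 11.0 and 14.5 CPM in untreated larvae, again with full overlap. The log2 fold changes of igfbp1b were -0.05 ± 0.15 in akr1a1a-/- over untreated larvae (adjusted p = 0.853) and -0.12 ± 0.15 in ACR-treated over untreated larvae (adjusted p = 0.954).

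IGFBP2 is the main binding protein of early growth in many vertebrates, and its 2 genes were expressed at unequal levels, as given in TPM above. The second IGFBP2 gene had a lowest, median and highest value of 46.8, 58.9 and 62.6 CPM in akr1a1a-/- larvae, 54.6, 64.1 and 65.7 CPM in ACR-treated larvae and 56.9, 61.6 and 69.4 CPM in untreated larvae. Its 2 lowest samples of all were akr1a1a-/- replicates 4 and 6, and the remaining akr1a1a-/- samples lay inside the ranges of the other groups. Its log2 fold change was -0.12 ± 0.07 in akr1a1a-/- over untreated larvae (SE, adjusted p = 0.249) and -0.14 ± 0.07 in akr1a1a-/- over ACR-treated larvae (adjusted p = 0.220). The first IGFBP2 gene had 6.70, 7.30 and 8.89 CPM in akr1a1a-/- larvae, 5.26, 7.94 and 8.57 CPM in ACR-treated larvae and 7.06, 8.17 and 8.97 CPM in untreated larvae. The groups overlapped, and replicate 2 was the lowest sample in both akr1a1a+/+ groups. Its log2 fold change in akr1a1a-/- over untreated larvae was -0.11 ± 0.11 (adjusted p = 0.509).

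IGFBP3, in mammals the carrier of most circulating IGF, and the IGFBP5 genes, whose protein is tied to muscle and bone, had group means close to each other. IGFBP3 had a lowest, median and highest value of 17.9, 19.7 and 21.2 CPM in akr1a1a-/- larvae, 18.1, 19.1 and 21.9 CPM in ACR-treated larvae and 17.1, 19.9 and 21.1 CPM in untreated larvae. The first IGFBP5 gene had 91.9, 96.1 and 106 CPM in akr1a1a-/- larvae, 85.4, 94.4 and 100.6 CPM in ACR-treated larvae and 89.7, 92.7 and 107 CPM in untreated larvae. The group means of both lay within 1 SD of each other, and the groups overlapped. The second IGFBP5 gene had 6.12, 8.20 and 9.42 CPM in akr1a1a-/- larvae, 7.14, 7.94 and 8.44 CPM in ACR-treated larvae and 6.33, 8.19 and 8.84 CPM in untreated larvae, and its low samples were akr1a1a-/- replicates 5 and 6 and untreated replicate 6. In akr1a1a-/- over untreated larvae the log2 fold changes of these genes were -0.003 ± 0.06 for IGFBP3, 0.02 ± 0.05 for the first and -0.02 ± 0.10 for the second IGFBP5 gene (SE, adjusted p = 0.983, 0.873 and 0.934 in that order).

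The ACR-treated libraries allowed comparisons within a lane. The 3 treated libraries of lane 2 against the untreated libraries, all of lane 2, gave 0 of 12 genes called (adjusted p 0.332 to 0.973, and 1 of 12 under an unadjusted p of 0.05), against 0.055% and 13.5% of all genes. In the same way, the 6 akr1a1a-/- libraries against the 3 treated libraries of lane 3 gave 0 of 12 (adjusted p 0.161 to 0.978, and 1 of 12 under an unadjusted p of 0.05), against 8.67% and 23.5% of all genes. The value that moved most was that of IGFBP1. Its log2 fold change over untreated larvae was 0.44 for the treated libraries of lane 2 (adjusted p = 0.439) and -0.35 for those of lane 3 (adjusted p = 0.9999), which also were other replicates. Lane and clutch cannot be told apart in this pair of values, each of which was set against all 6 untreated libraries. In the untreated libraries, all of lane 2, IGFBP1 had 41.7, 46.0 and 34.7 CPM in replicates 1 to 3. In replicates 4 to 6 it had 41.3, 33.6 and 19.1 CPM.

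Pairing the same-numbered akr1a1a+/+ samples gave no call in the ACR comparison either. With the replicate number as a block in a fit of all 18 samples, akr1a1a-/- ones included, 0 of 12 genes passed (adjusted p 0.789 to 0.992, and 0 of 12 under an unadjusted p of 0.05), against 0.138% and 7.94% of all genes. The same block in a fit of both akr1a1a+/+ groups alone was chosen after seeing the data. There 0 of 12 passed (adjusted p 0.572 to 0.965), and 0 of 12 were under the unadjusted p. Of the 22866 genes tested in that fit 137 passed, and 3109 were under the unadjusted p. The exact test over changes of sign of the 6 paired differences gave two-sided p values of 0.219 to 1.0 for the 12 genes, the smallest possible being 0.0313. For the first IGFBP5 gene, which had the smallest of these p values, the treated sample was higher in 2 of 6 pairs, and the mean paired difference was -0.03 ± 0.06 on the log2 scale (SD, n = 6, exact p = 0.219).

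**Figure D4:**
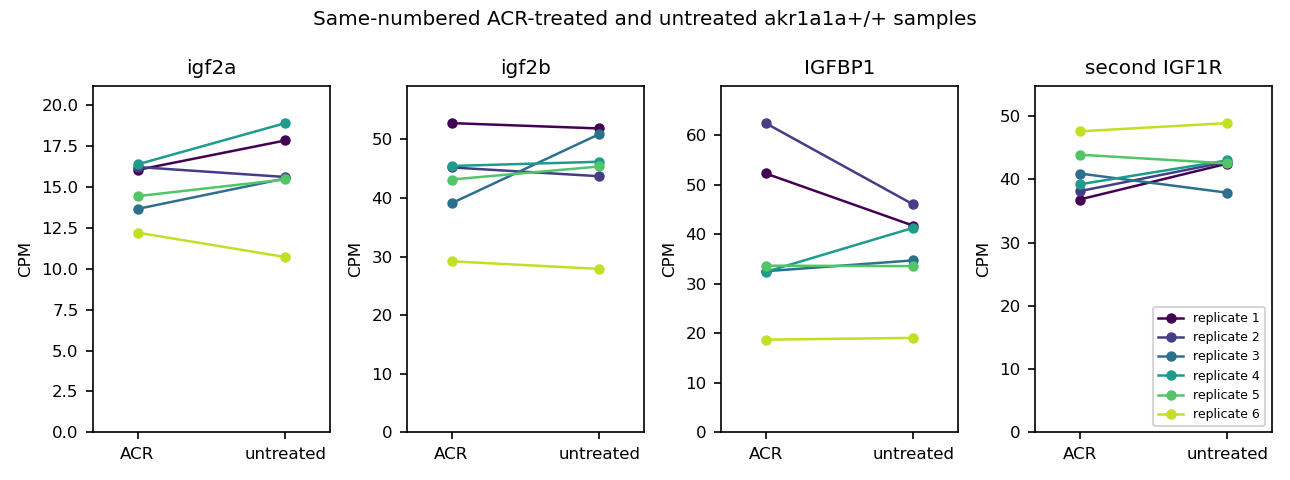
CPM of igf2a, igf2b, IGFBP1 and the second IGF1R gene in ACR-treated (left) and untreated (right) akr1a1a+/+ samples, with lines joining samples of the same replicate number. Replicate 6 is lowest in both groups for igf2a, igf2b and IGFBP1, at 18.7 CPM treated and 19.1 CPM untreated for IGFBP1, and highest in both for the second IGF1R gene.

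The genes differed in how much they varied between samples of one group. The SD of log2 CPM within groups was 0.49 for IGFBP1, higher than in 93.3% of all genes tested and in 98.97% of genes of like level. It was 0.29 for igfbp1b, 0.27 for igf2b and 0.25 for igf2a, higher than in 92.8%, 94.2% and 90.7% of genes of like level, in that order. IGF1 had 0.27, higher than in 31.5% of genes of its low level. At the other end were the first IGFBP5 gene at 0.09, IGFBP3 at 0.10 and the second IGF1R gene at 0.11. Hepatocyte markers, given above, had overlapping sums in all groups, although 11 of 14 were lower by sign in akr1a1a-/- than in untreated larvae. The part of liver content in the variation of IGFBP1 was not tested.

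**Figure D5:**
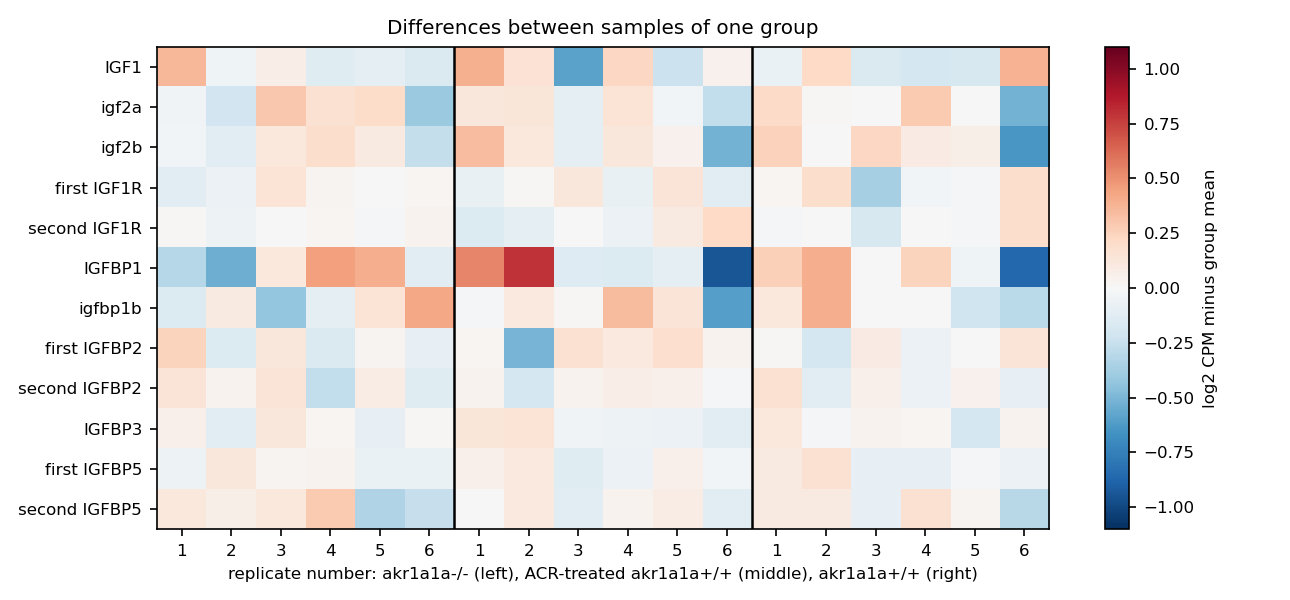
Log2 CPM of each IGF gene in each sample minus the mean of its group (colour, red above and blue below), for replicates 1 to 6 of akr1a1a-/- larvae (left), ACR-treated larvae (middle) and untreated akr1a1a+/+ larvae (right). The darkest cells are those of IGFBP1, which had a within-group SD of 0.49, and igf2a, igf2b and IGFBP1 are blue together in replicate 6 of both akr1a1a+/+ groups.

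These differences within groups were shared by some members. Over 18 samples, each centred on its group mean, igf2a and igf2b had a Pearson r of 0.855 (Spearman rho 0.790), igf2b and IGFBP1 an r of 0.810 (rho 0.715) and igf2a and IGFBP1 an r of 0.748 (rho 0.703). Of the 66 pairs of members, 7 had an r over 0.5 and 5 an r under -0.5, the lowest being -0.808 for igf2b and the second IGF1R gene (rho -0.676). Part of this rested on replicate 6. Without replicate 6 of each group, r was 0.628 for igf2a and igf2b, 0.604 for igf2b and IGFBP1, 0.635 for igf2a and IGFBP1 and -0.484 for igf2b and the second IGF1R gene. The 2 IGFBP2 genes had an r of 0.686 with and 0.760 without those samples, and the 2 IGF1R genes 0.463 and 0.685. The points share libraries, and the akr1a1a+/+ points also share replicate numbers between groups. In the RefSeq annotation of GRCz12tu the genes igfbp3 and igfbp1a are neighbours, as are igfbp5a and igfbp2a, and igfbp2b and igfbp5b. IGFBP1 and IGFBP3 had an r of 0.469 with and 0.542 without replicate 6 of each group. Which IGFBP2 gene neighbours which IGFBP5 gene cannot be told by name here. Between the IGFBP2 and IGFBP5 genes r ran from -0.544 to -0.102.

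The genes most like IGFBP1 over the same 18 centred samples, among 18462 genes, were hbegfa with an r of 0.947, mcl1b with 0.945 and epgn with 0.929. hbegfa and epgn encode ligands of the epidermal growth factor receptor family, and mcl1b a protein that blocks apoptosis. Without replicate 6 of each group these r were 0.930, 0.892 and 0.853. For IGF1 the closest among 18463 genes were RSAD1 with 0.824, p2rx1 with 0.783 and REV1 with 0.778, for a gene of 22 to 47 counts. How high the top r of so large a search would be by chance was not tested for either gene.

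Of the 63 tested genes of the pathway lists, 9 passed the test in akr1a1a-/- over untreated larvae, where 16.2% of all genes did. Of 15 tested genes for further IGF family proteins and for enzymes and inhibitors that release IGF from binding proteins, 1 was higher and 2 were lower in akr1a1a-/- than in untreated larvae, against 8.19% of all genes higher and 7.96% lower. Their median log2 fold change was -0.08, against -0.0007 over all genes tested. IGF2R encodes the receptor that in mammals takes up IGF2 for breakdown. Its lowest, median and highest values were 24.0, 26.6 and 31.7 CPM in akr1a1a-/- larvae, 20.7, 22.6 and 23.4 CPM in ACR-treated larvae and 18.9, 20.7 and 26.1 CPM in untreated larvae. Every akr1a1a-/- sample thus lay above every ACR-treated sample, while of the untreated samples replicate 6 alone reached into the akr1a1a-/- range. IGF2R rose by a log2 fold change of 0.36 against untreated larvae (adjusted p = 0.00245) and of 0.28 against ACR-treated larvae (adjusted p = 0.0150), and it kept both calls when any one sample was left out (highest adjusted p 0.00834 and 0.0439) but not with lane as a covariate (adjusted p = 0.158 and 0.106).

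The 2 genes that fell were listed for the release step, and the other gene of each name was not called. HTRA3 (ENSDARG00000010925), a secreted protease, had 2.96 to 3.98 CPM in akr1a1a-/- larvae and 4.13 to 5.23 CPM in untreated larvae, with no overlap (log2 fold change -0.39, adjusted p = 0.0351). STC2 (ENSDARG00000056680), in mammals an inhibitor of the pappalysin proteases that cut IGFBPs, had 16.7 to 22.8 CPM in akr1a1a-/- larvae and 21.4 to 26.3 CPM in untreated larvae (log2 fold change -0.29, adjusted p = 0.0230). Each lost its call when certain single samples were left out (7 of 12 for HTRA3, highest adjusted p 0.0744, and 3 of 12 for STC2, highest adjusted p 0.0574) and with lane as a covariate (adjusted p = 0.733 and 0.0853). Against ACR-treated larvae the same genes were lower again, by log2 fold changes of -0.48 for HTRA3 (adjusted p = 0.0117) and -0.28 for STC2 (adjusted p = 0.0348), in a comparison that shares the akr1a1a-/- samples. There the STC2 call was lost without any one of 6 of the 12 samples (highest adjusted p 0.0886) and kept with lane as a covariate (adjusted p = 0.0468). The HTRA3 call was kept when any one sample was left out (highest adjusted p 0.0308) and lost with lane as a covariate (adjusted p = 0.155).

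Upstream of the ligands, 1 of 11 tested genes of the growth hormone axis passed in akr1a1a-/- over untreated larvae, where 16.2% of all genes did. It was jak2a, the kinase of the growth hormone receptor, which rose by 0.27 on the log2 scale in akr1a1a-/- over untreated larvae (adjusted p = 0.0199, 0.0541 without 1 of the 12 samples and 0.112 with lane as a covariate). Of the 4 IGF mRNA-binding proteins 1 passed, against the same 16.2% of all genes. It was igf2bp1, which rose by 0.13 (adjusted p = 0.0367). Its call was lost when any one of 9 of the 12 samples was left out, and with lane as a covariate (adjusted p = 0.205). Only 5 of the 9 pituitary markers passed the filter on low counts. By edgeR's quasi-likelihood test 0 of these 5 passed in this comparison, and DESeq2 called 0. Under an unadjusted p of 0.05 in edgeR's test were 0 of the 5, against 29.8% of all genes. By sign all 5 were lower in akr1a1a-/- than in untreated larvae, with a median log2 fold change of -0.10, against -0.0007 over all genes tested. Of the 18 hypoxia response genes 3 were higher and none was lower, against 8.19% of all genes higher and 7.96% lower. These were both EPAS1 genes, which encode a hypoxia-inducible factor (0.37 and 0.16, adjusted p = 0.000387 and 0.0429), and BNIP3L (ENSDARG00000028067), a mitophagy receptor (0.19, adjusted p = 0.0176). The other gene named BNIP3L was not called. With lane as a covariate the first EPAS1 gene (ENSDARG00000008697) kept its call (adjusted p = 0.0345), and the other EPAS1 gene and BNIP3L did not (adjusted p = 0.577 and 0.395). The call of the other EPAS1 gene was also lost without any one of 10 of the 12 samples (highest adjusted p 0.101). Of the 15 glucocorticoid and FoxO response genes 1 passed, against 16.2% of all genes. It was foxo3b, a transcription factor restrained by IGF and insulin signals, which fell by 0.14 (adjusted p = 0.0407). Its call was lost without any one of 8 of the 12 samples and kept with lane as a covariate (adjusted p = 0.04325). Compared with ACR-treated larvae, 7 of the 63 tested genes of the pathway lists passed, against 13.8% of all genes. Among them, jak2a was higher in akr1a1a-/- larvae by 0.29 (adjusted p = 0.0122), as were the first EPAS1 gene by 0.20 (adjusted p = 0.0331), the same BNIP3L gene by 0.24 (adjusted p = 0.00414) and the hypoxia-induced NDRG1 (ENSDARG00000010420) by 0.44 (adjusted p = 0.0298) on the log2 scale. The other genes named EPAS1, BNIP3L and NDRG1 were not called there. Of these, the EPAS1 call was lost without any one of 6 and the NDRG1 call without any one of 7 of the 12 samples. With lane as a covariate jak2a kept its call (adjusted p = 0.0325), and EPAS1, BNIP3L and NDRG1 did not (adjusted p = 0.0885, 0.0524 and 0.336). In ACR-treated over untreated larvae 0 of the 63 tested genes of these pathway lists passed by edgeR's quasi-likelihood test, 4 were under an unadjusted p of 0.05, and DESeq2 called 0. Of all genes 0.0258% passed that edgeR test and 5.42% were under the unadjusted p.

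Between akr1a1a-/- and untreated larvae, 2 of 14 hepatocyte markers were higher (tfa and serpina1) and 2 were lower (ahsg1 and RBP4). By sign, 11 of the 14 were lower, with a median log2 fold change of -0.15, against -0.0007 over all genes tested. Under an unadjusted p of 0.05 in edgeR's test were 7 of the 14, against 29.8% of all genes. Of 10 cartilage and bone markers COL2A1 (ENSDARG00000069093) was higher and SOX9 (ENSDARG00000043923) lower, and the other gene of each name was not called. Of all genes 8.19% were higher and 7.96% lower. With lane as a covariate ahsg1 (adjusted p = 0.0216) and COL2A1 (adjusted p = 0.0192) kept their calls, and tfa, serpina1, RBP4 and SOX9 did not (adjusted p = 0.0659, 0.117, 0.717 and 0.164). The log2 fold changes without and with lane were 0.50 and 0.43 for tfa and 0.36 and 0.46 for serpina1. They were -0.33 and -0.11 for RBP4 and -0.24 and -0.26 for SOX9. The RBP4 call was also lost without any one of 3 of the 12 samples. Of 8 fast muscle markers 1 was higher, ACTA1 (ENSDARG00000055618), an actin of the contractile apparatus (log2 fold change 0.86, adjusted p = 1.35e-05, and 0.00606 with lane as a covariate). The other gene named ACTA1 was not called. Over ACR-treated larvae, 4 of 14 hepatocyte markers passed in akr1a1a-/- larvae, tfa and serpina1 higher and ahsg1 and FGG lower. Of 10 cartilage and bone markers 1 was higher (COL2A1), as was 1 of 8 fast muscle markers (ACTA1). Of all genes 13.8% passed. By sign, 11 of the 14 hepatocyte markers were lower, and 9 were under an unadjusted p of 0.05 in edgeR's test, against 27.1% of all genes. The ahsg1 and FGG calls were each lost without any one of 7 of the 12 samples, and that of FGG also with lane as a covariate (adjusted p = 0.202). The part of tissue make-up in the values of the IGF genes was not tested.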

How the data were processed

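The members, the gene lists and the rule for the genes named were chosen with earlier results of these data known. The genes named are the 12 members, the genes of each list with an adjusted p under 0.05 (at most 4 rises and 4 falls), akr1a1a, INSR, and the 3 genes most like IGF1 and IGFBP1. Samples were grouped by their labels, and all 18 were used. The deposited count files hold the authors' estimated counts per gene, not normalized, and 45.1 to 45.9% of genes in a sample had a count that was not whole. The authors also deposited TPM values, normalized within each sample. The submitters' processing notes name Trim Galore 0.6.4, kallisto 0.4.6 and GRCz11. Reads shared by near-identical copies are split by estimation in such counts, and the counts of the second IGF1R gene and of igfbp1b were not whole in any of the 18 samples. Those of the first IGFBP5 gene were not whole in 17 samples, of the second IGFBP5 gene in 15 and of igf2a in 10. The first IGF1R gene had such counts in 6 samples, IGFBP3 in 3 and IGFBP1 in 2. Rounded to 2 decimals, the counts of igf2a, the first IGF1R gene, IGFBP3 and IGFBP1 were whole in all 18 samples. Fractions that small do not show reads split between copies. IGF1, igf2b and both IGFBP2 genes had whole counts in every sample.

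The design had assumed whole counts, so the estimated counts were rounded and then tested in R 4.3.3 with edgeR 4.0.16 (TMM, filterByExpr, glmQLFit and glmQLFTest, a mean for each of 3 groups, 15 residual degrees of freedom), with Benjamini-Hochberg adjustment over 23223 genes. The design had written 10 members where 12 genes matched. CPM values use TMM library sizes. The SE is the log2 fold change divided by the root of F, and 95% intervals are approximate. Levels of different genes were compared in TPM only. No error that counting leaves out, such as PCR duplicates, is covered by the depth given. The counting is not stated to use strand. The alternatives were DESeq2 1.42.0 and its size factors, limma 3.58.1 on log2(TPM + 1) and log2(TPM + 0.1), no filter, at least 10 counts in every sample, a replicate block, lane as a covariate or single lanes, fits of 2 groups and leaving out each sample. Same-numbered ACR-treated and untreated akr1a1a+/+ samples were taken as paired, since all 6 pairs correlated over 0.1 across genes. The akr1a1a-/- samples were not (1 of 6 pairs with untreated larvae). Samples are separate clutches for the akr1a1a-/- and untreated groups, and for the ACR-treated group the sources used here do not say so. The gene-order annotation was RefSeq's for GRCz12tu, used for neighbours only. The scripts were tested on simulated data.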

Additional observations from a re-analysis of the deposited data

Results flagged for a closer look

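Of the 36 sets of 6 samples checked, 12 genes in each of 3 groups, 3 held a sample far from the others, where chance gives about 1 in 20. For igf2b, replicate 6 of the untreated akr1a1a+/+ larvae was lowest at 27.9 CPM, and the nearest other sample had 43.7 CPM. For the first IGFBP2 gene, replicate 2 of the ACR-treated larvae was lowest at 5.26 CPM, and the nearest had 7.64 CPM. For the second IGFBP2 gene the same sample was lowest at 54.6 CPM, and the nearest had 61.9 CPM. Replicate 2 was also the lowest untreated sample for both IGFBP2 genes, at 7.06 and 56.9 CPM.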

How the results depend on the processing

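Of 864 values of single genes under alternatives, 779 kept their direction and their side of the threshold, 83 changed sign with no call and 2 gained a call. The count of called genes among the 12 in akr1a1a-/- over untreated larvae was 0 to 1 when one sample was left out (1 without replicate 3 of the untreated larvae). It was 1 without replicate 6 of the untreated and ACR-treated larvae, a fit that kept akr1a1a-/- replicate 6. Over all genes, the count in ACR-treated over untreated larvae was 6, and 3 to 10 without one sample, 32 with the replicate block, 137 with the replicate block in a fit of both groups alone (chosen after seeing the data), 20 with lane, 13 and 0 with treated libraries of lane 2 and of lane 3, 21 by DESeq2, 2 by limma at either pseudocount and 1 without the akr1a1a-/- samples. With lane it was 1498 for akr1a1a-/- over untreated larvae (3752 without) and 1980 for akr1a1a-/- over ACR-treated larvae (3194 without), where lane 3 alone gave 2050. The replicate block changed no other call of the 12 genes. For the akr1a1a-/- comparisons, where numbers do not pair the samples, the lowest adjusted p with the block was 0.0616 for untreated and 0.108 for ACR-treated larvae. The causes were not tested.

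The log2 fold changes that changed sign were all without a call. In akr1a1a-/- over untreated larvae, lane gave 0.0219 for igf2b and 0.1637 for IGFBP3. The TPM fits at pseudocounts of 1 and 0.1 gave -0.0074 and -0.0072 for IGFBP1 and -0.0413 and -0.0430 for the first IGFBP5 gene. The median over all genes tested in these fits was itself -0.0487 and -0.057. Without replicate 6 of both akr1a1a+/+ groups IGFBP1 had -0.0705 and IGFBP3 0.0043. In ACR-treated over untreated larvae, lane gave 0.0441 for igf2b and -0.0254 for the second IGFBP2 gene, and the treated libraries of lane 2 gave 0.0427 and -0.0263. Those of lane 3 gave 0.0223 for the second IGF1R gene, -0.3510 for IGFBP1, 0.0064 for the first IGFBP2 gene and -0.0681 for IGFBP3. The second IGFBP2 gene had -0.0050 without replicate 6 of both groups. The second IGFBP5 gene had 0.0113 and 0.0137 in the TPM fits, where the median over all genes was 0.0153 and 0.0183. In akr1a1a-/- over ACR-treated larvae, IGFBP1 had 0.0383 with the replicate block, 0.0211 with the block in a fit of both groups alone, 0.4123 with lane and 0.4132 with lane 3 alone. IGFBP3 had 0.0664 with lane and 0.0669 with lane 3 alone. In the TPM fits igfbp1b had -0.0023 and -0.0017 and the first IGFBP5 gene -0.0251 and -0.0262, where the median over all genes was -0.0628 and -0.0725. Without replicate 6 of both akr1a1a+/+ groups igfbp1b had -0.0302.

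Leaving out one sample gave, in akr1a1a-/- over untreated larvae, -0.0669 to 0.1528 for IGFBP1, -0.1508 to 0.0357 for igfbp1b, -0.0373 to 0.0197 for IGFBP3, -0.0108 to 0.0503 for the first and -0.0777 to 0.0435 for the second IGFBP5 gene. In ACR-treated over untreated larvae it gave -0.1623 to 0.0234 for igf2b, -0.0889 to 0.2387 for IGFBP1, -0.0135 to 0.0489 for the second IGFBP2 gene, -0.0189 to 0.0368 for IGFBP3, -0.0543 to 0.0003 for the first and -0.0643 to 0.0236 for the second IGFBP5 gene. In akr1a1a-/- over ACR-treated larvae it gave -0.0354 to 0.1530 for IGF1, -0.1799 to 0.1490 for IGFBP1, -0.0302 to 0.1452 for igfbp1b, -0.1124 to 0.0116 for the first IGFBP2 gene, -0.0439 to 0.0129 for IGFBP3 and -0.0669 to 0.0543 for the second IGFBP5 gene.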

Other observations

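The relation between estimated count and TPM, which follows the length of the transcripts counted, varied between samples for igf2a. The count per TPM had a coefficient of variation of 8.73% over the 18 samples, higher than in 93.3% of 19618 genes, and its highest value was 1.38 times its lowest. For igf2b the coefficient was 0.370%. Relative to the median ratio over genes of the same sample, the lowest values of igf2a were those of replicate 1 of the akr1a1a-/- larvae, at 0.778, and replicate 3 of the untreated akr1a1a+/+ larvae, at 0.716. Both an akr1a1a-/- and an untreated sample were thus low, and the ACR-treated samples lay between 0.876 and 0.986. Which igf2a transcripts were counted in these samples was not analysed here.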
